A study of Homo sapiens with 6 samples.

Results

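The genes described here are 58 human heat shock protein and chaperone genes, taken by gene symbol from a table of 28491 genes. They cover the HSP70, HSP110, HSP40, HSP90 and HSPB families, the BAG proteins, the cochaperones of HSP90, the chaperonins of mitochondria and cytosol, and the heat shock factors HSF1 and HSF2. The set was put together with the lower HSPA1B level in RBM47-OE already known, so HSPA1B, HSPA1A and their sum are given as values without a test. Counts of other members come from the same contrast and are set beside the percentage over all genes as a description only.

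RNA came from HCT116, an established human colorectal carcinoma line, and poly(A) RNA was sequenced for 3 libraries with a control plasmid (NC) and 3 with an RBM47 plasmid (RBM47-OE), 48 h after transfection. RBM47 is an RNA-binding protein that acts on splicing and mRNA stability. The accounts of the samples differ: by the study's methods the RBM47 transcript was in pIRES-hrGFP-1a, the medium was McCoy's 5A and the library kit was KC stranded, and by the labels these were pcDNA3.1-3xFlag-RBM47, DMEM and NEBNext directional. All libraries came from 1 cell line, and nothing in the labels says that they were separate cultures, so p-values measure the spread between these samples, which may be technical.

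Molecular chaperones bind unfolded or unstable protein and help it to reach its folded form. HSP70 proteins bind and release short stretches of protein in an ATP cycle that J-domain (HSP40) proteins start and nucleotide exchange factors such as HSP110 and BAG proteins reset, HSP90 proteins finish the folding of kinases, receptors and other clients with the help of cochaperones, small heat shock proteins hold unfolded protein without ATP, and chaperonins enclose it in a barrel. Many of these genes are kept on in growing cells, and a subset is switched on further by HSF1, which binds repeats of a short element in their promoters. Tumor cell lines commonly hold high levels of several of them.

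The libraries held between 26792409 and 35477983 counts on genes, and RBM47 itself was at 1.91 to 2.33 FPKM in NC and at 127.0 to 131.3 FPKM in RBM47-OE. FPKM scales the fragments on a gene to its length and to all mapped fragments of the library. All 8 epithelial marker genes looked for were above 1 FPKM in every library, and of 8 leukocyte, fibroblast and endothelial markers only COL1A1 was, with 3 of the 8 having no row. The summed FPKM of the latter list was 1.88 to 2.15 in NC and 1.60 to 1.92 in RBM47-OE.

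RefSeq promoters (GRCh38.p14, from 250 bases before to 50 bases after the start site of the entry, with 1 entry per gene) were matched by symbol for 53 of the 58 genes and searched on both strands for the heat shock element, the HSF1 binding element, as 3 alternating units (GAA, TTC and GAA again, or TTC, GAA and TTC, with any 2 bases between neighbouring units, where matches may overlap). Of the 53 promoters, 5 held it (9.43%), against 133 of 27305 promoters of all genes (0.487%). They are shown here because they are the members whose promoter letters carry the element nearest to its textbook form, on the gene's own strand and with the 9 bases of the 3 units in capitals.
HSPA8, chr11:123062173-123062197, minus strand: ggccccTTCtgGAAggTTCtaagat
HSPA8, chr11:123062348-123062372, minus strand: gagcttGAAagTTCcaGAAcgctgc
HSPA6, chr1:161524460-161524484, plus strand: gaaaggTTCgcGAAagTTCgcggcg
CHORDC1, chr11:90223081-90223105, minus strand: attcgcGAAggTTCctGAAacgcaa
DNAJA1, chr9:33025270-33025294, plus strand: cgggcgGAActTTCcaGAAcgctcg
DNAJB6, chr7:157336867-157336891, plus strand: agccgaGAAccTTCgcGAAggtggg
CHORDC1 held 2 further matches that overlap the one shown, which together run over 5 alternating units. The match in DNAJA1 lies 3 to 15 bases after the gene start, and the first in HSPA8 ends 43 bases before it. The promoters of HSPA1A and HSPA1B each held 1 run of only 2 units, which 13.7% of all promoters hold. Such a match describes letters in a window, and no match there says nothing about binding by HSF1.

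The deposited counts were compared between RBM47-OE and NC with edgeR's quasi-likelihood test, with HSPA1A and HSPA1B summed, over 16259 rows that passed a filter on low counts. All 57 rows of the set passed it, although HSPA1L reached the required level in 1 of 3 NC libraries and in all 3 RBM47-OE libraries, so that its entry rested on the group where it was higher. Log2 fold changes are RBM47-OE over NC, with standard errors (SE), and adjusted p-values come from the Benjamini-Hochberg method over all rows. Gene levels in the libraries also followed the GC content of exons, so values from another fit, in which the trend of every library with GC content was taken out (the GC offset), are given beside the first. Leaving out the HSPA1 sum, 19 of 56 members rose (33.9%, against 19.1% of all genes) and 10 fell (17.9%, against 16.9%) at an adjusted p under 0.05. Either way 29 were called (51.8%, against 35.9%). Under the GC offset 3 rose (5.36%, against 5.98%) and 8 fell (14.3%, against 8.57%), where 14.5% of all genes were called either way. The groups did not overlap, in CPM (counts scaled to the TMM-corrected library totals), for 20 members that were higher and 14 that were lower in RBM47-OE, where 23.2% of all genes were apart upwards, 23.4% downwards and 46.6% either way. The median log2 fold change of the 56 members was 0.08, where that of all genes was 0.0001, and it was -0.03 with the GC offset. Single members lay between -0.46 and 0.65 on the log2 scale, and the median size of change was 0.25, close to the 0.24 of all genes. The members with an adjusted p under 0.05 in both fits were HSPA13 and HSP90AA1, which rose, and BAG3, TRAP1, FKBP4, CCT7 and CCT3, which fell. Other members kept their sign without passing in both. In these bulk libraries, less RNA per cell and fewer cells that express a gene cannot be told apart.

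**Figure D1:**
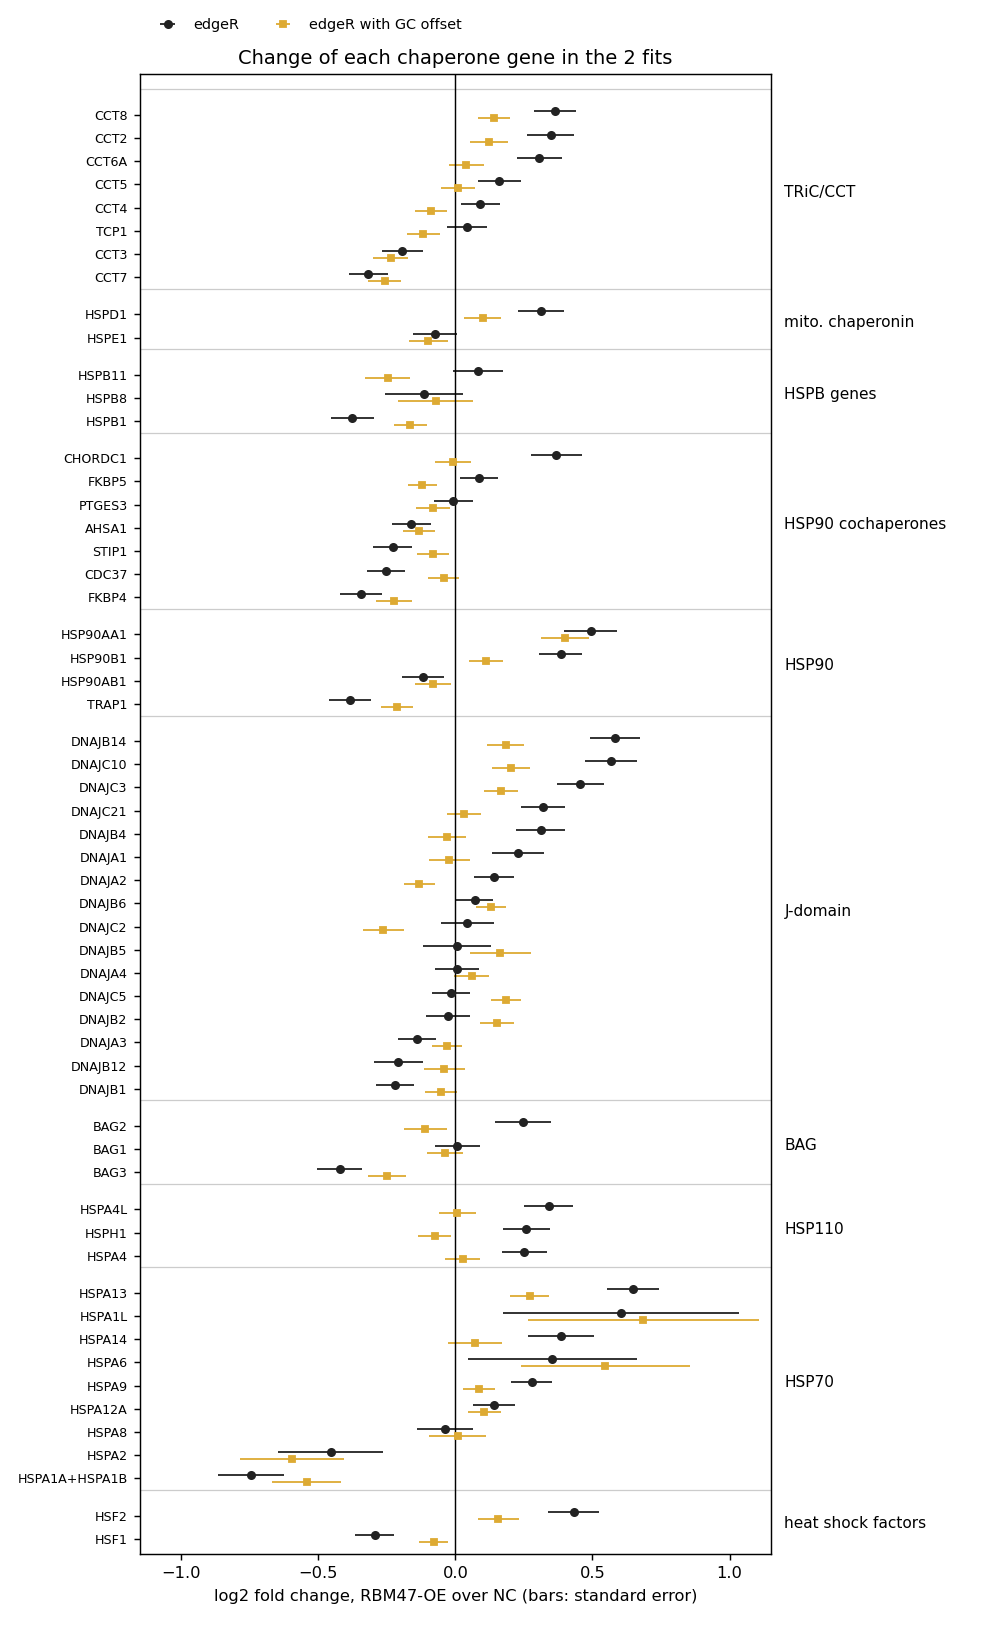
Log2 fold change (RBM47-OE over NC, horizontal axis) of the 57 rows of the set, grouped by role, from edgeR (black circles) and from edgeR with the GC offset (yellow squares), where bars are standard errors. HSPA13 has the highest value among members with an adjusted p under 0.05 (0.65) and the HSPA1A and HSPA1B sum has the lowest value of all (-0.74), and most yellow squares lie nearer to 0 than the black circles.

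HSPA1B and HSPA1A encode the stress-inducible HSP70. They stand side by side on chromosome 6 of GRCh38, both on the plus strand and each with 1 exon, HSPA1A from 31815543 to 31817946 and HSPA1B from 31827738 to 31830254. HSPA1B was at 52.1, 57.6 and 54.1 FPKM in NC replicates 1, 2 and 3, and at 32.7, 24.5 and 44.1 FPKM in RBM47-OE replicates 1, 2 and 3. Every RBM47-OE library was below every NC library, and RBM47-OE replicate 3 was nearest to NC. The means were 54.6 ± 2.81 and 33.8 ± 9.81 FPKM (SD, n = 3), and the log2 fold change was -0.76 (SE 0.12) with the genes in separate rows. HSPA1A was far lower, at 3.26, 3.35 and 2.36 FPKM in NC and at 3.28, 1.35 and 2.34 in RBM47-OE. Its groups overlapped, and the log2 fold change was -0.42 (SE 0.20). Summed counts of both copies gave a log2 fold change of -0.74 (SE 0.12), which was -0.54 (SE 0.13) with the GC offset. With 1 library left out at a time the sum lay between -0.97 and -0.54.

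The split between the copies is uncertain. Their coding sequences of 1926 bases differ at 4 positions (99.8% identity), and the study counted uniquely mapped reads of 150 bases. Of all 150-base windows along the transcripts, 69.6% in HSPA1A and 66.1% in HSPA1B occur unchanged in the other copy, so such a read could be placed uniquely only through its mate. Read pairs were not examined. No window within the 3' UTRs, of 260 and 378 bases, was shared. The lncRNA ENSG00000285565 covers 920 exonic bases of HSPA1B on the same strand (36.6% of its exons). It held 1164, 1638 and 1199 counts in NC and 1405, 1374 and 1088 in RBM47-OE. The log2 fold change was -0.12 (edgeR adjusted p = 0.28). Reads in the shared bases may have been given to either gene or to none, since the counting rule is not given in the sources used here. With the counts of HSPA1A, HSPA1B and this lncRNA in 1 row, a sum chosen after seeing the data, the log2 fold change was -0.59.

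The study's HSPA1B primers for RT-qPCR are shown because they illustrate how little sequence separates the copies. The forward primer has no mismatch to either transcript, and the reverse primer, which spans the stop codon and the start of the 3' UTR, has 1 mismatch to HSPA1A, C8T, counted from the 5' end of the primer and in capitals.
HSPA1B forward primer, in both copies: tcatcagcggactgtacc
HSPA1B reverse primer: cctaatcCacctcctcaatg
HSPA1A at the reverse primer: cctaatcTacctcctcaatg
The product is 111 bases long in both copies.

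**Figure D2:**
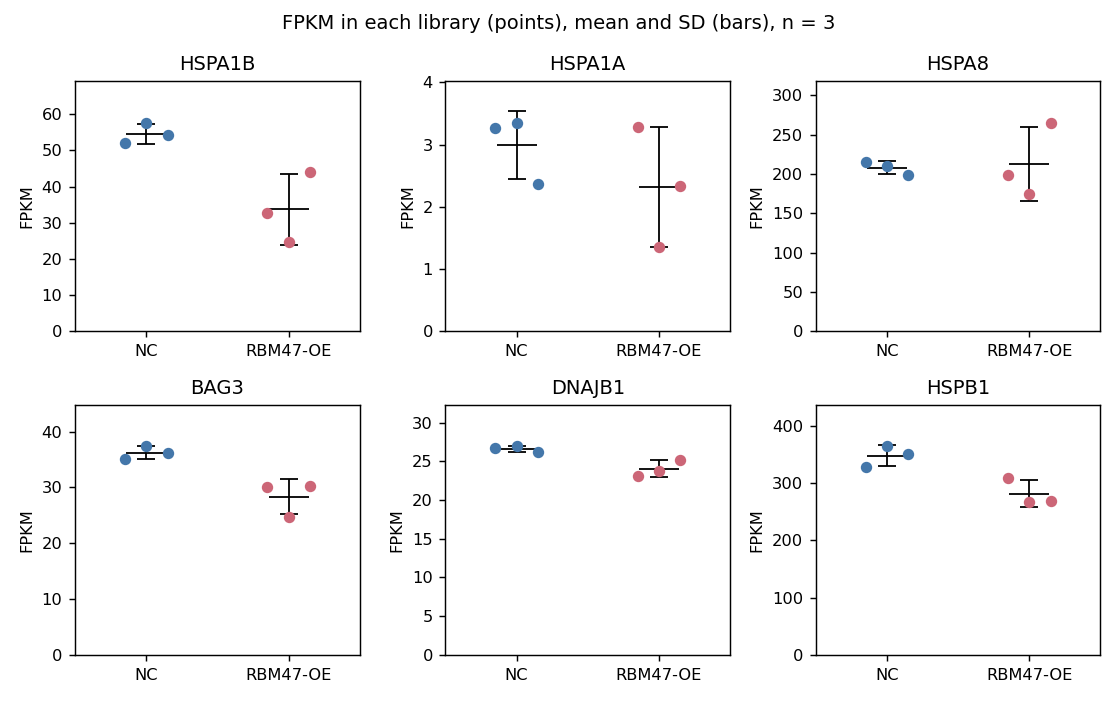
FPKM (vertical axis, from 0) of HSPA1B, HSPA1A, HSPA8, BAG3, DNAJB1 and HSPB1 in each NC library (blue points) and RBM47-OE library (red points), with the mean and SD (n = 3) as bars. HSPA1B, BAG3, DNAJB1 and HSPB1 are lower in all 3 RBM47-OE libraries than in any NC library, whereas the groups of HSPA1A and HSPA8 overlap.

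Both heat shock factors moved, in opposite directions. HSF1, the main switch of the heat shock response, was at 21.1, 21.3 and 22.2 FPKM in NC and at 19.4, 18.9 and 17.0 in RBM47-OE. It fell by 0.29 on the log2 scale (SE 0.072, edgeR adjusted p = 0.0026), with every RBM47-OE library below NC. HSF2, a factor active in development that can pair with HSF1, was at 6.59, 6.41 and 6.13 FPKM in NC and at 7.98, 9.53 and 9.64 in RBM47-OE. It rose, with a log2 fold change of 0.43 (SE 0.094, edgeR adjusted p = 0.001) and no overlap. The HSF2 to HSF1 ratio of FPKM was 0.312, 0.301 and 0.276 in NC and 0.411, 0.505 and 0.566 in RBM47-OE. Neither change kept an adjusted p under 0.05 with the GC offset, where the log2 fold changes were -0.08 (adjusted p = 0.35) and 0.16 (adjusted p = 0.17). HSF1 has an exonic GC content of 65.4%, the highest in this set, and HSF2 of 40.3%.

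Of the 8 other HSP70 genes, 3 rose, 0 fell and 5 did not pass the test. HSPA8 (HSC70), the constitutive cytosolic form and the most abundant HSP70 here, was at 215, 209.8 and 199 FPKM in NC and at 199, 174 and 265 in RBM47-OE. The RBM47-OE libraries lay on both sides of NC, and the log2 fold change was -0.04 (SE 0.10, edgeR adjusted p = 0.81). Without RBM47-OE replicate 3 it was -0.23 (adjusted p = 0.047). Its promoter holds 2 of the elements shown above. HSPA13, an HSP70 relative associated with microsomes, was at 7.42, 7.77 and 6.95 FPKM in NC and at 9.79, 12.7 and 14.1 in RBM47-OE. Each RBM47-OE library exceeded each NC library, and the log2 fold change of 0.65 (SE 0.096, edgeR adjusted p = 4.6e-05) was the highest of any member that passed. Its value was 0.27 under the GC offset (adjusted p = 0.012). In the edgeR fit HSPA13 was also the only member that rose past the study's thresholds (unadjusted p under 0.01 and fold change over 1.5). There 1.51% of all genes passed them upwards, 0.873% downwards and 2.38% either way. The study set them on DESeq2, with which the J-domain gene DNAJB14 passed too (log2 fold change 0.588, DESeq2 adjusted p = 2.8e-07). In edgeR DNAJB14 fell just short of that fold change (0.583).

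HSPA9 (mortalin), the HSP70 of the mitochondrial matrix, and HSPA14, a partner of the ribosome-bound J-domain protein DNAJC2, rose by a log2 fold change of 0.28 (edgeR adjusted p = 0.0052) and 0.39 (edgeR adjusted p = 0.013). Neither passed with the GC offset (0.09 and 0.07, adjusted p = 0.38 and 0.69). HSPA14 also lost its call without NC replicate 3 or without RBM47-OE replicate 2 or 3 (0.29 to 0.34, adjusted p = 0.057 to 0.11). It shares 12.7% of its exonic bases with MSANTD7 on the same strand. HSPA12A, a distant relative, had a log2 fold change of 0.14 (edgeR adjusted p = 0.16), and of 0.17 without RBM47-OE replicate 1 (adjusted p = 0.044). The tissue-restricted HSPA2, the strictly inducible HSPA6 and the testis-enriched HSPA1L were all below 1 FPKM in every library. HSPA1L was listed at 0.08, 0.09 and 0.14 FPKM in NC and at 0.15, 0.17 and 0.19 in RBM47-OE, with a log2 fold change of 0.60 and a wide error (SE 0.43, edgeR adjusted p = 0.29). HSPA6 stood at 0.32 to 0.36 FPKM in NC and 0.34 to 0.66 in RBM47-OE (edgeR adjusted p = 0.40). HSPA2 had a log2 fold change of -0.46 (edgeR adjusted p = 0.064), and of -0.60 with the GC offset (adjusted p = 0.037), with overlapping groups. Without NC replicate 1 or RBM47-OE replicate 3 it was -0.60 and -0.58 (adjusted p = 0.025 and 0.046).

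All 3 HSP110 genes, whose products exchange the nucleotide of HSP70, rose together. HSPA4L was at 3.23, 3.19 and 2.79 FPKM in NC and at 3.48, 4.20 and 4.58 in RBM47-OE, with a log2 fold change of 0.34 (SE 0.090, edgeR adjusted p = 0.0046). HSPH1, a heat-inducible form, was at 10.6, 10.1 and 10.3 FPKM in NC and at 10.5, 13.8 and 14.8 in RBM47-OE, with a log2 fold change of 0.26 (SE 0.087, edgeR adjusted p = 0.021). HSPA4, the most abundant, was at 39.2, 38.0 and 41.0 FPKM in NC and at 41.2, 50.9 and 56.1 in RBM47-OE, with a log2 fold change of 0.25 (SE 0.083, edgeR adjusted p = 0.019). RBM47-OE replicate 1 lay at or near the NC level for each of them, and the HSPH1 groups overlapped. The HSPA4 groups overlapped in CPM (237 in RBM47-OE replicate 1 and 242 in NC replicate 3), though not in FPKM. The call of HSPA4 was lost without NC replicate 1 or 2 or RBM47-OE replicate 2 or 3 (0.15 to 0.25, adjusted p = 0.055 to 0.17), that of HSPH1 without replicate 2 or 3 of either group (0.15 to 0.25, adjusted p = 0.073 to 0.18), and that of HSPA4L without NC replicate 3 (0.27, adjusted p = 0.054). HSPA4 and HSPH1 also missed the threshold with limma on log2(FPKM + 1) (adjusted p = 0.055 and 0.078). The 3 genes have GC contents between 38.0% and 41.97%, and with the GC offset none passed: the log2 fold changes were 0.01 (adjusted p = 0.96) for HSPA4L, -0.07 (0.45) for HSPH1 and 0.03 (0.83) for HSPA4.

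Among the BAG genes 0 of 3 rose and 1 fell. BAG3, a stress-inducible cochaperone that links HSP70 to small heat shock proteins and to autophagy, was at 35.02, 37.4 and 36.3 FPKM in NC and at 30.1, 24.7 and 30.3 in RBM47-OE. Every RBM47-OE library was below NC, and it fell by 0.42 on the log2 scale (SE 0.082, edgeR adjusted p = 0.00038) and by 0.25 with the GC offset (adjusted p = 0.020). BAG2, an inhibitor of the ubiquitin ligase CHIP, was at 4.42, 4.53 and 4.12 FPKM in NC and at 4.25, 5.64 and 6.46 in RBM47-OE (log2 fold change 0.25, edgeR adjusted p = 0.064). Its RBM47-OE libraries lay on both sides of NC, its value was 0.39 without RBM47-OE replicate 1 (adjusted p = 0.00044), 0.10 without RBM47-OE replicate 3 (adjusted p = 0.46) and -0.11 with the GC offset, and 42.7% of its exonic bases lie opposite RAB23 exons. BAG1, which also binds BCL2, had a log2 fold change of 0.01 (edgeR adjusted p = 0.96).

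Of the 16 J-domain genes 5 rose and 1 fell. DNAJB14, an ER membrane protein, was at 2.05, 1.78 and 1.82 FPKM in NC and at 2.55, 3.28 and 3.08 in RBM47-OE, a log2 fold change of 0.58 (SE 0.091, edgeR adjusted p = 6.2e-05). DNAJC10 (ERdj5), a disulfide reductase of the ER, was at 1.33, 1.31 and 1.41 FPKM in NC and at 1.74, 2.10 and 2.48 in RBM47-OE, a log2 fold change of 0.57 (SE 0.094, edgeR adjusted p = 0.0001). The groups of both genes were apart. The GC offset gave 0.18 (adjusted p = 0.070) and 0.20 (adjusted p = 0.054). DNAJC3, an ER cochaperone also known as an inhibitor of eIF2alpha kinases, DNAJC21, which acts in ribosome assembly, and the cytosolic DNAJB4 rose by log2 fold changes of 0.46, 0.32 and 0.31 (edgeR adjusted p = 0.00031, 0.0033 and 0.0082). None of them passed with the GC offset (0.17, 0.03 and -0.03, adjusted p = 0.074, 0.79 and 0.82).

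DNAJB1, the J-domain partner of inducible HSP70, was at 26.8, 26.9 and 26.2 FPKM in NC and at 23.1, 23.8 and 25.2 in RBM47-OE. It was the J-domain gene that fell, by 0.22 on the log2 scale (edgeR adjusted p = 0.015), with the groups apart and a value of -0.05 with the GC offset (adjusted p = 0.62). It did not pass when any 1 NC library was left out (-0.23 to -0.21, adjusted p = 0.050 to 0.086), with library totals or with limma on FPKM, nor did DNAJB4 without NC replicate 2 (0.29, adjusted p = 0.057). DNAJA1, the most abundant J-domain gene, was at 46.7, 45.3 and 47.7 FPKM in NC and at 46.7, 55.0 and 70.4 in RBM47-OE. Its libraries overlapped, and the log2 fold change of 0.23 (SE 0.095, edgeR adjusted p = 0.060) turned to -0.02 with the GC offset, and was 0.35 without RBM47-OE replicate 1 (adjusted p = 0.0012) and 0.05 without RBM47-OE replicate 3 (adjusted p = 0.65). The other 9 J-domain genes were between -0.21 (DNAJB12) and 0.14 (DNAJA2) on the log2 scale and did not pass. When RBM47-OE replicate 1 was left out, DNAJA2 (0.19, adjusted p = 0.016) and DNAJB12 (-0.22, adjusted p = 0.045) passed, and DNAJA2 also passed with library totals in place of TMM. Under the GC offset, DNAJC5, the cysteine string protein, had a log2 fold change of 0.19 (adjusted p = 0.026) and DNAJC2, a ribosome-bound form, of -0.26 (adjusted p = 0.023), where the first fit gave -0.01 and 0.04. DNAJC2 shares 20.9% of its exonic bases with PMPCB on the other strand.

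The 4 HSP90 genes split by form. HSP90AB1, the constitutive cytosolic HSP90, was the most abundant member, above 99.9% of protein-coding genes by FPKM, at 1329.6, 1356 and 1317 in NC and at 1275, 1279 and 1318 in RBM47-OE. In FPKM RBM47-OE replicate 3 was just above the lowest NC library, whereas in CPM every RBM47-OE library was below NC. The log2 fold change was -0.12 (SE 0.077, edgeR adjusted p = 0.24). HSP90AA1, the inducible cytosolic form, was at 435, 410.1 and 403 FPKM in NC and at 484, 642 and 723 in RBM47-OE. All RBM47-OE libraries were above NC, and it rose with a log2 fold change of 0.49 (SE 0.098, edgeR adjusted p = 0.0005), which was 0.40 with the GC offset (adjusted p = 0.0042). The HSP90AA1 to HSP90AB1 ratio of FPKM was 0.327, 0.302 and 0.306 in NC and 0.379, 0.502 and 0.549 in RBM47-OE.

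HSP90B1 (GRP94), the HSP90 of the ER, had a mean of 58.9 ± 0.0954 FPKM in NC and of 80.8 ± 9.26 in RBM47-OE (SD, n = 3). It rose by a log2 fold change of 0.38 (edgeR adjusted p = 0.00062), and was at 0.11 with the GC offset (adjusted p = 0.24). TRAP1, the HSP90 of mitochondria, was at 75.4, 79.8 and 76.5 FPKM in NC and at 68.2, 59.9 and 58.1 in RBM47-OE. It fell by 0.38 on the log2 scale (SE 0.076, edgeR adjusted p = 0.00049) with the groups apart, and by 0.21 with the GC offset (adjusted p = 0.018). TRAP1 shares 28.5% of its exonic bases with DNASE1 on the opposite strand.

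**Figure D3:**
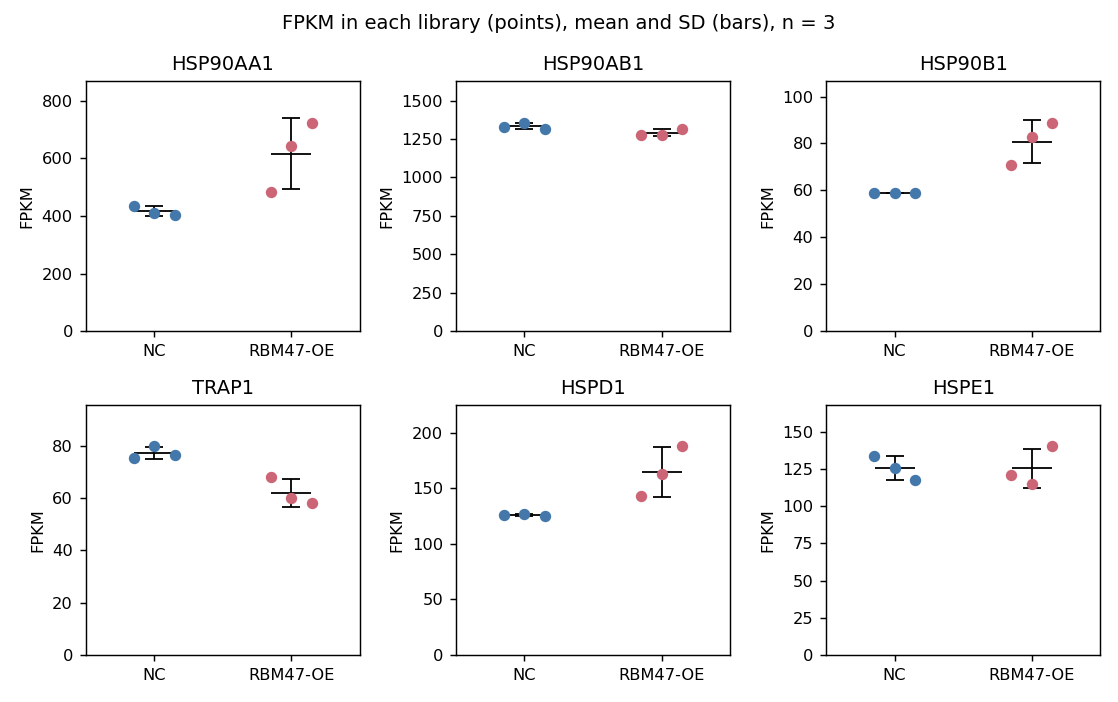
FPKM (vertical axis, from 0) of the 4 HSP90 genes and of the mitochondrial chaperonin genes HSPD1 and HSPE1 in each NC library (blue points) and RBM47-OE library (red points), with the mean and SD (n = 3) as bars. HSP90AA1, HSP90B1 and HSPD1 are higher and TRAP1 is lower in every RBM47-OE library than in any NC library, and the NC and RBM47-OE points of HSP90AB1 and HSPE1 overlap.

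Of the 7 HSP90 cochaperones 1 rose and 3 fell. FKBP4 (FKBP52), an immunophilin of steroid receptor complexes, was at 84.6, 86.3 and 82.0 FPKM in NC and at 72.2, 63.0 and 73.9 in RBM47-OE. It fell, with the groups apart, by 0.34 on the log2 scale (SE 0.077, edgeR adjusted p = 0.0013) and by 0.22 with the GC offset (adjusted p = 0.028). CDC37, which brings kinases to HSP90, and STIP1 (HOP), which joins HSP70 to HSP90, fell by 0.25 and 0.23 on the log2 scale (edgeR adjusted p = 0.0062 and 0.012), and neither passed with the GC offset (-0.04 and -0.08, adjusted p = 0.67 and 0.40). CDC37 missed the threshold without NC replicate 2 (-0.24, adjusted p = 0.053), and STIP1 without NC replicate 1 or 2 (-0.22 in both, adjusted p = 0.078 and 0.079). CHORDC1, an HSP90 cochaperone whose promoter carries the overlapping elements shown above, was at 5.92, 5.56 and 6.03 FPKM in NC and at 6.35, 8.09 and 9.35 in RBM47-OE. It rose without overlap in the first fit (log2 fold change 0.37, SE 0.092, edgeR adjusted p = 0.0030), and its value was -0.01 with the GC offset (adjusted p = 0.94) and 0.23 without RBM47-OE replicate 3 (adjusted p = 0.039). PTGES3 (p23), the most abundant of the cochaperones, was at 158, 159.6 and 162 FPKM in NC and at 167, 159 and 176 in RBM47-OE, and the overlapping groups had a log2 fold change of -0.01 (SE 0.072, edgeR adjusted p = 0.95). AHSA1, an activator of the HSP90 ATPase, and FKBP5, an immunophilin induced by glucocorticoids, were at -0.16 and 0.09 on the log2 scale (edgeR adjusted p = 0.078 and 0.36), and AHSA1 passed without RBM47-OE replicate 1 (-0.19, adjusted p = 0.015).

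Among the 3 HSPB genes HSPB1 (HSP27), the main small heat shock protein here, was at 329, 364 and 351 FPKM in NC and at 308, 267 and 268 in RBM47-OE. It fell by 0.38 on the log2 scale (SE 0.078, edgeR adjusted p = 0.00069), with the groups apart, and was at -0.16 with the GC offset (adjusted p = 0.072). HSPB8, a partner of BAG3, was at 2.41, 2.32 and 1.79 FPKM in NC and at 2.46, 2.15 and 1.70 in RBM47-OE, and the groups overlapped (log2 fold change -0.12, SE 0.14, edgeR adjusted p = 0.57). HSPB11, named IFT25 in GENCODE 44 and a part of the intraflagellar transport complex, had a log2 fold change of 0.08 (edgeR adjusted p = 0.52) and of -0.25 with the GC offset (adjusted p = 0.048).

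HSPD1 (HSP60) and HSPE1 (HSP10) form the mitochondrial chaperonin and its lid, and overlap on chromosome 2 of GRCh38, HSPD1 on the minus strand from 197486584 to 197516737 and HSPE1, inside that span, on the plus strand from 197500140 to 197503449. They share 135 exonic bases on opposite strands. HSPE1 also shares 192 exonic bases (10.5% of its exons) with HSPE1-MOB4 on the same strand. HSPD1 was at 126, 127 and 125 FPKM in NC and at 143, 163 and 188 in RBM47-OE. It rose without overlap, with a log2 fold change of 0.31 (SE 0.083, edgeR adjusted p = 0.0047) and 0.10 with the GC offset (adjusted p = 0.36). Without RBM47-OE replicate 3 it was 0.20 (adjusted p = 0.050). HSPE1 was at 134, 126 and 117 FPKM in NC and at 121, 115 and 140.2 in RBM47-OE. Its groups overlapped, and the log2 fold change was -0.08 (SE 0.080, edgeR adjusted p = 0.50). The HSPD1 to HSPE1 ratio of FPKM was 0.942, 1.01 and 1.07 in NC and 1.18, 1.42 and 1.34 in RBM47-OE.

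The cytosolic chaperonin TRiC/CCT folds actin and tubulin, and its rings are built of the products of 8 related genes, which thus act in equal numbers. The genes did not move together: 3 rose, 2 fell and 3 did not pass. CCT8 was at 87.7, 85.8 and 82.4 FPKM in NC and at 102.3, 115 and 128 in RBM47-OE (log2 fold change 0.36, SE 0.077, edgeR adjusted p = 0.00083). CCT2 was at 65.2, 64.4 and 59.7 FPKM in NC and at 70.7, 83.4 and 99.1 in RBM47-OE (log2 fold change 0.35, SE 0.087, edgeR adjusted p = 0.0032). CCT3, the most abundant, was at 242, 240.2 and 224 FPKM in NC and at 219.9, 208 and 221 in RBM47-OE (log2 fold change -0.19, SE 0.074, edgeR adjusted p = 0.043). In all 3 genes the groups were apart. CCT6A also rose (0.31, edgeR adjusted p = 0.0051) and CCT7 fell (-0.32, edgeR adjusted p = 0.0015), and the CCT8 to CCT7 ratio of FPKM was 0.431, 0.408 and 0.428 in NC and 0.585, 0.682 and 0.766 in RBM47-OE. After the GC offset, CCT8, CCT2 and CCT6A were at 0.14, 0.12 and 0.04 (adjusted p = 0.12, 0.27 and 0.73), whereas CCT3 and CCT7 were at -0.24 and -0.26 (adjusted p = 0.016 and 0.0063). In the first fit CCT3 kept its call only when the library left out was RBM47-OE replicate 1 (otherwise -0.23 to -0.15, adjusted p = 0.052 to 0.20), it did not pass with the replicate number as a block (adjusted p = 0.12), and without RBM47-OE replicate 3 CCT2 was at 0.21 (adjusted p = 0.040) and CCT6A did not pass (0.20, adjusted p = 0.054). TCP1, CCT4 and CCT5 were between 0.04 and 0.16 on the log2 scale in the first fit and passed in neither fit, and CCT5 was at 0.23 without RBM47-OE replicate 1 (adjusted p = 0.0079).

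**Figure D4:**
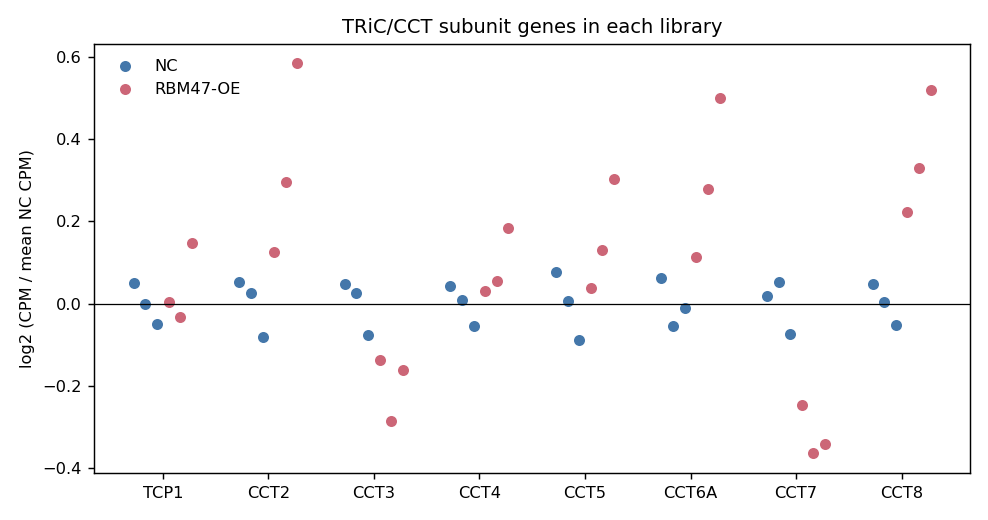
Log2 of each library's CPM over the mean NC CPM (vertical axis) for the 8 TRiC/CCT genes (horizontal axis), with NC libraries in blue and RBM47-OE libraries in red. CCT2, CCT6A and CCT8 lie above and CCT3 and CCT7 below NC in all 3 RBM47-OE libraries, and the groups of TCP1, CCT4 and CCT5 overlap.

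The direction of change within the set followed base composition. Exonic GC content of the 56 members, over the union of all annotated exons of a gene, ran from 33.1% to 65.4%. Spearman's rho between GC content and log2 fold change was -0.72 over the members and -0.63 over the 16226 tested rows with exons in GENCODE 44. These are relations across genes that share the same libraries, and no p was attached. Of 19 members under 42% GC, 14 rose and 0 fell, with a median log2 fold change of 0.32, where 56.0% of the 3688 tested genes of that class rose, 0.651% fell and the median was 0.33. Of 22 members from 42 to 50%, 5 rose and 2 fell, where 19.3% of 4979 genes rose and 7.03% fell. Of 15 members at 50% or more, 0 rose and 8 fell, with a median of -0.22, where 0.926% of 7559 genes rose, 31.3% fell and the median was -0.19. These bounds were set after the values were seen. With the GC offset rho was -0.14 over the members and -0.05 over all rows, and the medians of the members in the 3 classes were 0.03, -0.06 and -0.04, beside 0.02, 0.01 and -0.02 for all genes. The offset takes away any change that follows GC content, whatever brought it about, and the origin of the trend was not tested.

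**Figure D5:**
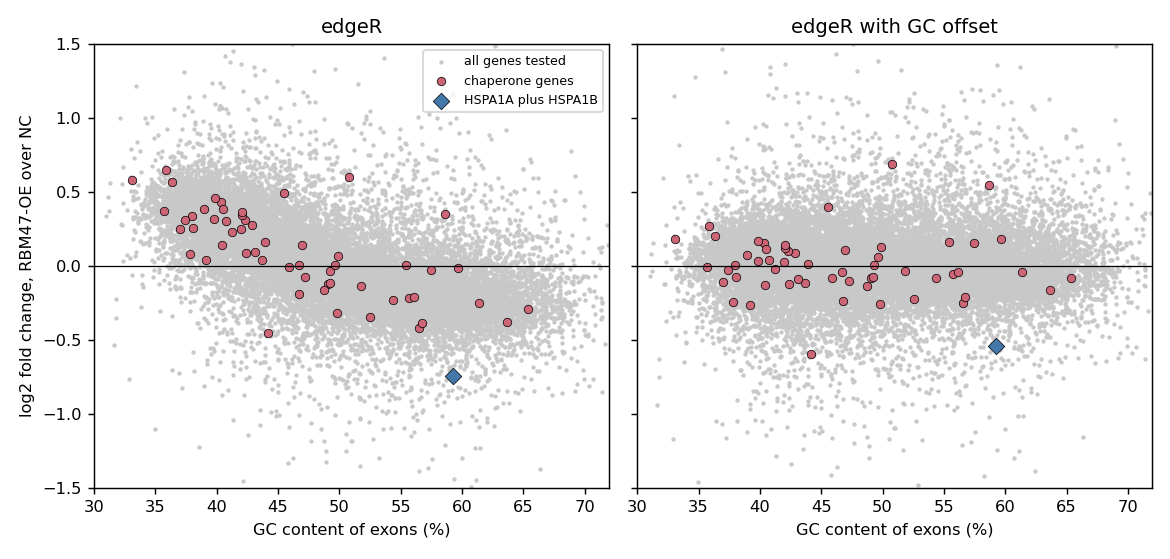
Log2 fold change (RBM47-OE over NC, vertical axis, cut at 1.5 in both directions, so more extreme genes are not drawn) against exonic GC content in percent (horizontal axis) for all tested genes (grey), the 56 chaperone genes (red) and the HSPA1A and HSPA1B sum (blue diamond), from edgeR (left) and with the GC offset (right). The horizontal axis is cut too, so genes beyond its ends are not drawn (GC content of all tested genes ran from 23.5% to 85.5%). The red points slope downwards on the left (rho = -0.72) and are nearly level on the right (rho = -0.14), and the blue diamond lies below them on the left.

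By level, the 58 genes took 1.75%, 1.72% and 1.67% of the summed FPKM of all genes in NC. In RBM47-OE they took 1.72%, 1.87% and 2.02%, of which replicate 1 was inside the NC range. HSP90AB1 and HSP90AA1 held 38.1% to 38.3% of that share in NC and 39.0% to 41.1% in RBM47-OE. The RBM47-OE libraries differed more among themselves than the NC libraries did: the median SD of log2 CPM over the 56 members was 0.053 in NC and 0.15 in RBM47-OE, and over all genes 0.088 and 0.15. The median difference of the members from NC was 0.02, 0.05 and 0.17 on the log2 scale in RBM47-OE replicates 1, 2 and 3, so replicate 3 stood highest.

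The textbook targets of the heat shock response did not share 1 direction. Of 17 such genes tested without the HSPA1 sum, a list chosen with results of these data known, 5 rose (29.4%, against 19.1% of all genes), 6 fell (35.3%, against 16.9%) and 6 did not pass, with a median log2 fold change of -0.08. With the GC offset 1 rose (5.88%, against 5.98%) and 3 fell (17.6%, against 8.57%). As with the members, these shares are a description. The median in RBM47-OE replicates 1, 2 and 3 was -0.09, -0.24 and 0.09 on the log2 scale. HSPB1, BAG3, DNAJB1, STIP1, FKBP4 and SERPINH1 (-0.33, edgeR adjusted p = 0.00094) fell, and HSP90AA1, HSPD1, HSPH1, CHORDC1 and HSPA4L rose. The 6 that did not pass were HSPA8, HSPE1, HSP90AB1, DNAJA1, AHSA1 and CACYBP. SERPINH1 and CACYBP are outside the set of members. The strictly inducible HSPA6 was not on this list (0.35, edgeR adjusted p = 0.40). Pseudogene rows were searched for by a member's symbol followed by P, which found 35 rows for 13 members. They held 322 counts over all libraries, 0.0265% of the 1216425 counts of their parents. Copies named otherwise would have been missed, and none was found for HSP90AA1, HSP90AB1 or CCT6A. The counts hold uniquely mapped reads only, so reads that fit both a gene and its copy are not in this tally.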

How the data were processed

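Poly(A) RNA of 3 NC and 3 RBM47-OE libraries was used. Per the study's methods and the submitters' processing notes, the authors dropped reads with ambiguous bases, trimmed adaptors with FASTX-Toolkit, and aligned the rest to GRCh38 with HISAT2. The deposited counts are uniquely mapped reads on each of 28491 genes, not normalized, and the deposited FPKM values, for 28244 genes, were computed by the authors from these alignments. The counting tool, the annotation release and the use of strand are not given in the sources used here, so reads in bases shared by overlapping genes could not be assigned. The labels' and the methods' accounts of plasmid, medium and library kit differ.

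Library totals of 26792409 to 35477983 counts limit the precision of members at low counts, such as HSPA1L. HSPA1A and HSPA1B counts were summed, library sizes were taken over all genes, and edgeR 4.0.16 in R 4.3.3 was run with filterByExpr (minimum count 10, minimum total 15), TMM factors, condition as the only term and Benjamini-Hochberg adjustment. The SE was derived from the quasi-likelihood F statistic, as the absolute change over its square root. The GC offset was a loess curve (span 0.3) of each library's difference from the mean of all libraries on exonic GC content from GENCODE 44. Exonic GC content and exonic overlaps were taken over the union of the exons of all annotated transcripts of a gene. They may thus include exons that these cells do not express. Simulated counts were used to test edgeR (also with RLE factors, the block or the GC offset), limma and DESeq2. They were drawn without a GC trend and with the same dispersion in both groups. They therefore cannot show how the fits behave on the trend and the unequal spread of these libraries. The members and lists were chosen with earlier results of these data known. Values in every library were given for HSPA1A, HSPA1B and, in each role group, the 2 members with the largest change and the member with the highest NC FPKM. DNAJB1, the J-domain gene that fell, was added after its values were seen, as were the other members named with a log2 fold change. Of 96 other chaperone genes, the 2 largest rises and the 2 largest falls were named. Alternatives were DESeq2 1.42.0, RLE factors, library totals, other filters, the replicate number as a block, the GC offset with that block, limma 3.58.1 on log2(FPKM + 1) and log2(FPKM + 0.1), separate HSPA1 rows, the study's thresholds on the edgeR fit, and each library left out. The sum that adds the overlapping lncRNA to HSPA1A and HSPA1B was chosen after seeing the data. Same-numbered libraries did not deviate together (r from -0.06 to -0.01, beside -0.02 to 0.04 for libraries with different numbers). With 3 libraries per group this cannot exclude that same-numbered libraries were handled together. No 2 libraries held identical values. Promoter sequences came from RefSeq (GRCh38.p14), and HSF1, HSPB11, FKBP4, HSPA14 and CCT6A had no entry.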

Additional observations from a re-analysis of the deposited data

How the results depend on the processing

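Of 19 members that rose and 10 that fell, DESeq2 called the same 19 and 10, library totals gave 24 and 8, limma at both pseudocounts 17 and 8, the GC offset 3 and 8, of which 2 and 5 were among the first, and the GC offset with the replicate block 4 and 8. Library totals added BAG2, CCT5, DNAJA1, DNAJA2 and HSPA12A to the members that rose and lost CCT3 and DNAJB1, and no filter added BAG2, DNAJA1 and, among those that fell, HSPA2. The replicate block alone gave 19 and 9, losing CCT3. The study's thresholds, put on the edgeR fit, gave 1 and 0 members, and 3 and 0 of the other chaperones. With DESeq2, DNAJB14 passed them as well (log2 fold change 0.588). Of the other chaperones 6 rose with the GC offset and 5 with the replicate block added. The median over 57 rows, 0.08, was 0.143 with library totals, 0.148 with limma on log2(FPKM + 0.1), -0.0308 with the GC offset and -0.0326 with the block added. Leaving out 1 library gave 14 to 24 members that rose and 6 to 12 that fell (6 without NC replicate 2), 15 to 30 other chaperones that rose (15 without RBM47-OE replicate 3) and 12 to 26 that fell, and medians of 0.05 to 0.12. The HSPA1 sum stayed below 0 in each of these fits, which adds no support, since the fall of HSPA1B in the same libraries was known when the set was chosen. Some signs turned. HSPA8 and PTGES3 were at 0.0208 and 0.0534 with library totals, at 0.00974 and 0.0616 with limma on log2(FPKM + 1) and at 0.00969 and 0.0619 on log2(FPKM + 0.1). With the GC offset HSPA8 was at 0.00764, HSPH1 at -0.0749, BAG2 at -0.109, DNAJA1 at -0.0218 and CHORDC1 at -0.00984, and with the block added the last 4 were at -0.0777, -0.113, -0.0326 and -0.0139. Leaving out 1 library gave -0.229 to 0.102 for HSPA8, -0.0460 to 0.0449 for PTGES3, -0.165 to 0.000309 for HSPE1 and -0.259 to 0.0138 for HSPB8. The cause of these changes was not tested. Members at low counts could not be resolved at this depth.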

Other observations

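Chaperone genes outside the set moved in both directions as well. Of 96 listed, 84 rows passed the filter on low counts, of which 24 rose (28.6%, against 19.1% of all genes) and 18 fell (21.4%, against 16.9%), with a median log2 fold change of 0.03. With the GC offset 6 rose (7.14%, against 5.98% of all genes) and 13 fell (15.5%, against 8.57%). HSPBP1, a nucleotide exchange factor of HSP70, was at 42.3, 42.6 and 39.99 FPKM in NC replicates 1, 2 and 3 and at 31.9, 26.7 and 31.0 in RBM47-OE, and fell by 0.55 on the log2 scale (SE 0.079, edgeR adjusted p = 3.7e-05) and by 0.34 with the GC offset (adjusted p = 0.0019). SDF2L1, a chaperone cofactor of the ER, was at 68.3, 69.8 and 64.7 FPKM in NC and at 56.2, 43.8 and 53.7 in RBM47-OE, and fell by 0.47 (SE 0.087, edgeR adjusted p = 0.00027) and by 0.25 with the GC offset (adjusted p = 0.026). All RBM47-OE libraries of both genes were below NC.

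The largest rises of that list were in J-domain genes of low level. DNAJC12, a cochaperone of aromatic amino acid hydroxylases, was at 1.51, 0.91 and 0.95 FPKM in NC and at 1.87, 2.05 and 1.92 in RBM47-OE (log2 fold change 0.73, SE 0.19, edgeR adjusted p = 0.0038), and DNAJC28 was at 0.22, 0.29 and 0.35 FPKM in NC and at 0.39, 0.72 and 0.49 in RBM47-OE (log2 fold change 0.80, SE 0.31, edgeR adjusted p = 0.043). The groups of both were apart, and neither passed with the GC offset (0.43 and 0.61, adjusted p = 0.13 and 0.18).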
